A study of Mus musculus with 9 samples.

Results

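Vortex flow was compared with high laminar shear in bEnd.3 cells, which are mouse brain endothelial cells made to grow without limit by polyoma middle T antigen, on glass coverslips in a parallel-plate chamber. The comparison uses 6 of the 9 libraries of the series, taken by their labels: 3 Vortex libraries (an irregular vortex at 0.5 to 2 dyne/cm2, which the submitters chose to model the late, enlarged aneurysm) and 3 HSS libraries (laminar flow at 20 dyne/cm2, chosen to model the early aneurysm at a bifurcation). The other 3 libraries, PSS, received laminar flow at 10 dyne/cm2 as the normal brain vessel condition, and their values are given where they help to place the others. All groups are 1 cell line in culture, with no blood cells or vessel wall. The flow pattern and the shear level differ together between Vortex and HSS, so their parts in any difference cannot be told apart.

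Endothelial cells read the drag of flowing blood through junctional receptors, ion channels and integrins. Steady laminar shear is known to raise the transcription factors KLF2 and KLF4 and endothelial nitric oxide synthase, and to quiet adhesion molecules and the cell cycle. Slow, disturbed flow is known for the opposite set: NF-kB targets such as selectins and VCAM1, sterol synthesis through SREBP2, and remodelling of the matrix. Loss of endothelial markers with gain of mesenchymal ones is called endothelial to mesenchymal transition, the kind of phenotypic change that the title of the series asks about.

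The Vortex libraries differed from each other far more than the HSS libraries did, and Vortex replicate 2 lay apart. Total counts were 17407217 to 22965802 per library over all 9. Between HSS libraries the chi-square per gene averaged 2.10 to 2.80, near the sampling noise but above it, against 68.0 to 419 between Vortex libraries. In Vortex replicates 1, 2 and 3, 77.8%, 56.7% and 84.4% of tested genes lay within 1 log2 unit of the HSS mean. Replicate 2 also had the fewest genes with a count, 21258 against up to 23860. Its median log2 difference from HSS was -1.32 over the eighth of genes lowest in GC content and 0.69 over the highest eighth, against 0.03 and 0.03 in replicate 1 and -0.29 and 0.09 in replicate 3. The part of GC content in the results was not tested beyond the fits that removed its trend. The labels name no separate cultures, and the protocol speaks of mixed RNA, so p-values measure only the spread between these libraries, which may be technical.

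The endothelial label held unevenly. The summed level of 10 endothelial markers was 172 to 178 CPM (each library's counts brought to the same scaled total) in HSS, 2019 to 2490 in PSS, and 539, 5572 and 881 in Vortex replicates 1, 2 and 3. The 8 pericyte and fibroblast markers summed to 1090 to 1151 CPM in HSS and to 1064, 115 and 926 in the Vortex libraries. Single members moved in both directions in replicates 1 and 3. Pdgfra was at 68.0 to 73.4 in HSS and 467, 21.4 and 332 in Vortex, and Dcn at 8.30 to 8.86 against 40.9, 0.381 and 44.9. Col3a1 was at 739 to 783 against 407, 54.0 and 335, Col1a1 at 240 to 252 against 124, 34.3 and 165, and Pdgfrb at 33.6 to 36.7 against 21.9, 4.57 and 47.2. For the 9 macrophage and leukocyte markers in the table the sums were 36.0 to 39.5 in HSS and 76.2, 30.4 and 81.0 in Vortex. These markers did not move alike. Csf1r was at 15.8 to 18.9 in HSS and 17.1, 13.1 and 8.64 in Vortex, and Adgre1 at 0.168 to 0.368 against 0.189, 0 and 0.0494. Cd14 was at 13.7 to 15.0 against 25.2, 8.05 and 24.9, and Lyz2 at 0.561 to 0.802 against 0.189, 0.953 and 10.7. Aif1, Itgam and Fcer1g had few counts in any library. The lysosomal Cd68, which macrophages hold in large amounts, was at 5.26 to 5.71 CPM in HSS and 33.2, 7.96 and 36.6 in Vortex and was called higher (adjusted p 0.0317 in edgeR). The leukocyte gene Cd53, not among the summed markers, was at 0 to 0.0561 in HSS and 0.252, 1.76 and 4.44 in Vortex and was also called. Ptprc had 2 counts over the HSS libraries and 0 over Vortex. Both calls were lost without any 1 HSS library (0.118 to 0.149) and without PSS replicate 1 (0.0577 and 0.0686), and that of Cd68 also without Vortex replicate 3 (0.0651), without PSS replicate 2 (0.0583) and in a fit of the 6 compared libraries (0.102). The part of such cells in the results was not tested. The 4 smooth muscle markers summed to at most 2.19 CPM in any library and 4 epithelial markers (Cdh1, Cldn4, Epcam and Krt5) to at most 1.65. The keratin Krt18, outside that sum, was at 2.07 to 2.83 in HSS and 8.89, 3.14 and 17.1 in Vortex, with an adjusted p of 0.054 that was 0.000772 without replicate 2. In bulk RNA, fewer cells of a type and less RNA per cell cannot be told apart.

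Of 15774 genes tested, 1111 (7.04%) were called at an adjusted p under 0.05 in edgeR (quasi-likelihood F test, Benjamini-Hochberg adjustment). Higher in Vortex were 690 (4.37%) and lower were 421 (2.67%), and 841 of the calls were at least 2-fold. Scaling by library totals gave 1000 calls with the split turned, 458 higher and 542 lower, and moved the median log2 difference of all genes from 0.10 to -0.03. The count moved with the HSS libraries used and with the libraries that share the estimate of spread. A fit of the 6 compared libraries called 66, leaving out any 1 HSS library left 25 or 26, and summing the HSS libraries to 1 called none, with 982 genes at an unadjusted p under 0.05. Without Vortex replicate 2 the fit called 3887. Over the genes tested in both fits, 14.1% were then called higher and 10.3% lower.

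All 3 Vortex libraries lay above the HSS range in 3069 genes (19.5%) and below it in 2666 (16.9%), 36.4% together. Among the called genes 686 lay above and 421 below, so 1107 of 1111 had ranges that did not overlap. Separate ranges stated for called genes further on therefore add little to the call. The 4 exceptions, named after their values were seen, were Gm50250, Lilrb4b, Nrros and Plxnc1. Lilrb4b, an inhibitory receptor of leukocytes with close paralogs, was at 3.63 to 4.04 CPM in HSS and at 128, 2.24 and 88.5 in Vortex replicates 1, 2 and 3. All 4 lost their calls without any 1 HSS or PSS library (adjusted p 0.0608 to 0.184) and without Vortex replicate 3 (0.0553 to 0.0772), Lilrb4b also without replicate 1 (0.0527). Replicate 2 went against both others often: it lay below HSS with the others above in 1431 genes (9.07%) and above with the others below in 1600 (10.1%). Replicate 1 went against both others in 2088 genes (13.2%), and replicate 3 in 460 (2.92%). All 1111 calls were also made, in the same direction, without replicate 2. Of 3840 genes called without replicate 2 and tested in both fits, replicate 2 lay beyond the HSS range on the same side in 2596, on the other side in 1063 and within it in 181.

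**Figure D1:**
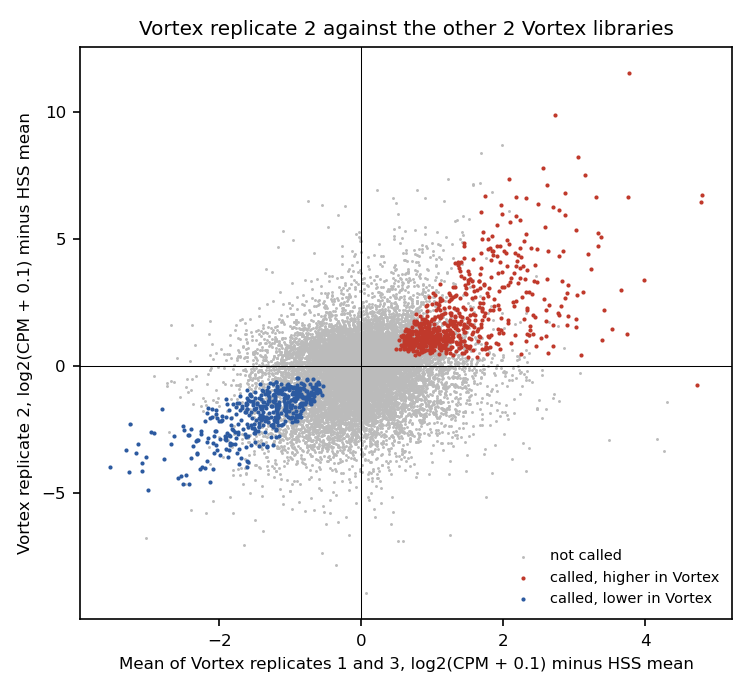
Each point is 1 tested gene, with the mean of Vortex replicates 1 and 3 on the x axis and Vortex replicate 2 on the y axis, both as log2(CPM + 0.1) minus the HSS mean. The 690 genes called higher and the 421 called lower fill the quadrants where replicate 2 has the sign of the others, except 1 called gene, Lilrb4b, and uncalled genes fill all 4 quadrants.

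Only 24 genes, 15 higher and 9 lower, were called in each fit that left out 1 of the 6 compared libraries, and all 24 were also called in the 6-library fit. The genes that follow were called, with at least 5 CPM in the higher group. The rule also required all 3 Vortex libraries beyond the HSS range on 1 side, each at least 1 log2 unit from the HSS mean. Separate ranges are thus no result for these genes. Those called in every fit that left out 1 compared library were taken first, by size, so genes with larger differences that lost their call in some fit, such as Kdr and Dll1, are described further on. Among the rises were enzymes of the cell surface and blood pressure control. Angiotensin-converting enzyme, Ace, was at 9.24, 7.29 and 9.57 CPM in HSS and 35.1, 65.5 and 54.4 in Vortex. The aminopeptidase Anpep was at 14.2, 13.9 and 14.8 in HSS and 84.8, 108 and 64.2 in Vortex, and the carboxypeptidase Cpm at 7.26, 7.12 and 6.73 against 48.2, 32.8 and 38.9. For the 3 genes in turn the fitted log2 differences were 2.57 ± 0.27, 2.58 ± 0.24 and 2.51 ± 0.21 (± standard error, adjusted p 0.0033, 0.0026 and 0.0021 by edgeR's quasi-likelihood test). PSS lay between, at 11.9 to 15.4 CPM for Ace and 15.4 to 15.8 for Cpm.

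The collagen-binding integrin chain Itga2 stood at 5.66, 4.43 and 4.37 CPM in HSS and 30.4, 44.3 and 44.1 in Vortex, a log2 rise of 3.04 ± 0.22. Its PSS values of 46.1 to 48.0 lay at or above the Vortex range. Tbc1d2, a Rab GTPase-activating protein, rose by 3.10 ± 0.32, from 6.10 to 6.41 CPM in HSS to 68.0, 48.2 and 46.2 in Vortex. The uridine phosphorylase Upp1 was at 20.5 to 23 in HSS and 132, 234 and 136 in Vortex, and the actin-associated Pdlim1 at 30.2 to 33.8 against 132, 188 and 160. In PSS, Pdlim1 was at 142 to 172, within its Vortex range. The water channel Aqp8 was nearly even across Vortex, at 49.2, 46.7 and 49.1 in Vortex against 8.91 to 10.3 in HSS and 2.53 to 4.41 in PSS. Fam167a and the small GTPase Arl4d completed the 10 largest rises among calls kept in each of these fits, with log2 differences of 3.08 ± 0.29 and 2.98 ± 0.32.

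The falls included secreted regulators, a protease and an RNA helicase. Sfrp2, a secreted Wnt modulator, was at 91.6, 93.4 and 96.9 CPM in HSS and 10.5, 5.24 and 11.5 in Vortex, a fall of 3.38 ± 0.29 on the log2 scale, with PSS between at 25.3 to 27.4. Bmper, a BMP-binding modulator of endothelial cells, was at 67.6, 62.2 and 71.3 in HSS and 16.3, 9.24 and 13.7 in Vortex. Its PSS values of 12.0 to 13.0 lay within the Vortex range. The matrix protease Adamts9 was at 218 to 219 in HSS and 46.2, 48.1 and 65.7 in Vortex. Separate Vortex and HSS ranges were required of these genes by the rule that named them. Dhx9, an RNA helicase, showed 503, 517 and 497 CPM in HSS, 187, 158 and 191 in Vortex and 608 to 644 in PSS. Samd9l, an interferon-inducible growth inhibitor, fell from 238 to 255 CPM in HSS to 31.5, 19.1 and 39.8 in Vortex. Syt13, Tle2 (a Groucho corepressor) and the steroid-metabolising enzyme Akr1c18 fell by 2.77 ± 0.32, 2.54 ± 0.30 and 2.53 ± 0.20. Akr1c18 was at 8.08 to 10.9 CPM in PSS, near its 13.7, 10.7 and 13.0 in Vortex. The neural adhesion gene Chl1 and Ifit1bl1 fell by more, 3.45 ± 0.57 and 3.27 ± 0.48, but lost their calls in the 6-library fit (adjusted p 0.0593 for both) and without any 1 HSS library (0.0758 to 0.0843). Without Vortex replicate 3 their differences were -4.40 and -3.99.

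**Figure D2:**
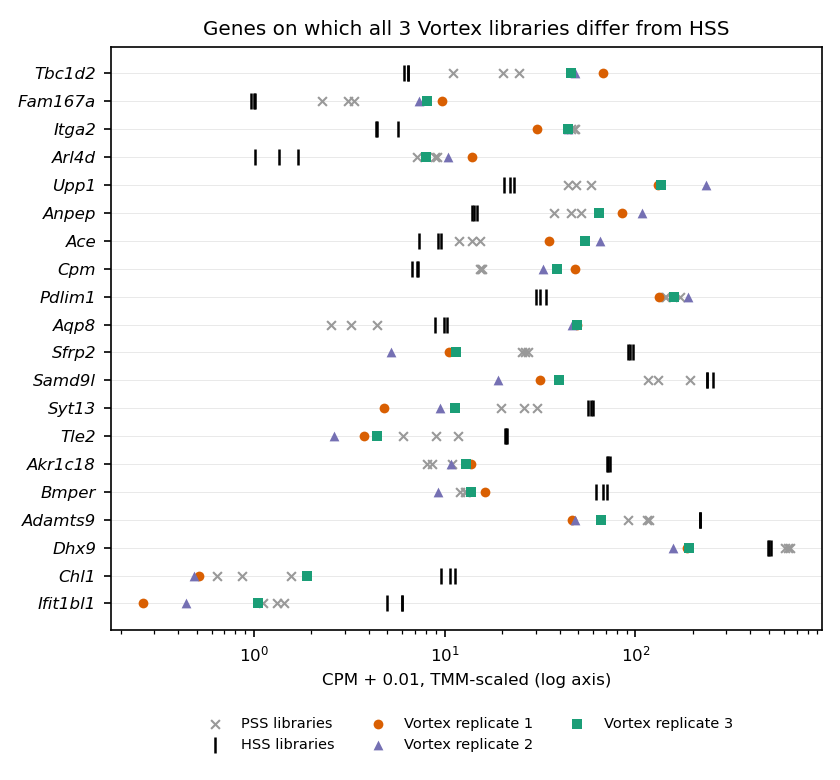
CPM plus 0.01 on a log axis for the 20 genes above, 1 mark per library. The rule that chose the genes required the 3 Vortex marks to lie on 1 side of the 3 HSS bars. PSS crosses lie between, beyond or on the other side depending on the gene.

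Across gene lists, the direction was shared by the 3 Vortex libraries in some and not in others. The median log2 differences from HSS in replicates 1, 2 and 3 were 0.96, 1.01 and 0.91 for ribosomal proteins, 0.59, 0.91 and 0.78 for cholesterol synthesis and -1.38, -0.55 and -0.85 for mitosis. They were 0.56, -1.16 and 0.77 for leukocyte adhesion and chemokines and 0.30, -4.80 and -0.36 for acute phase genes. Over all tested genes they were 0.03, 0.03 and 0.00. List members named below by p were taken among those with all 3 Vortex libraries on 1 side of the HSS mean. Their shared direction is therefore no result.

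**Figure D3:**
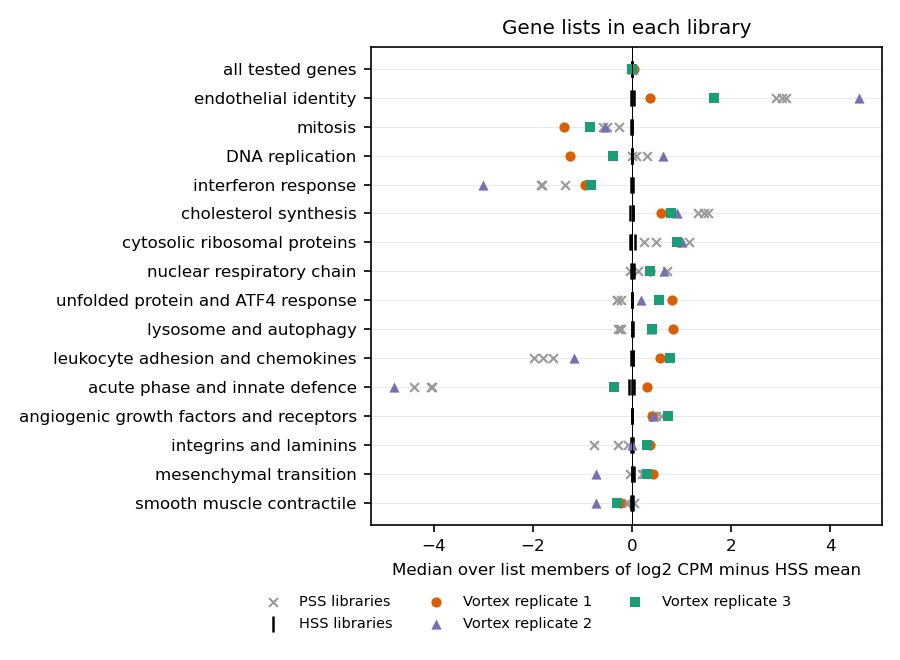
Median over each list's tested members of log2 CPM minus the HSS mean, 1 mark per library. The 3 Vortex marks cluster for ribosomal and cholesterol genes, whereas replicate 2 stands apart for endothelial, interferon and acute phase genes.

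Endothelial genes had medians above HSS in the 3 Vortex libraries, by very different amounts. The list's median log2 differences from HSS were 0.36, 4.58 and 1.65 in Vortex replicates 1, 2 and 3. In PSS replicates 1, 2 and 3 they were 3.11, 3.03 and 2.90. Of 29 tested endothelial identity genes, 14 were called higher and none lower, beside 4.37% and 2.67% of all genes. In 20 of the 29 all 3 Vortex libraries lay above HSS and in none did all lie below, beside 19.5% and 16.9% of all genes. The list's median log2 difference was 3.36, and 1.75 without replicate 2, with 19 calls higher in a fit that called 14.1% of all genes higher. Kdr, the main VEGF receptor, was at 7.12, 7.74 and 7.31 CPM in HSS and 94.3, 744 and 109 in Vortex, a difference of 5.42 ± 0.81 (adjusted p 0.0114). Without replicate 2 the difference was 3.78. Von Willebrand factor, Vwf, was at 13.1 to 16.2 in HSS and 64.8, 903 and 180 in Vortex, and the junctional cadherin Cdh5 at 119 to 126 against 329, 1298 and 381. Each Vortex library exceeded every HSS library for these 3 genes, with replicate 2 highest. Without it the log2 differences of Vwf and Cdh5 moved from 4.70 to 3.06 and from 2.46 to 1.54.

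The adhesion molecule Pecam1 was at 1.08, 1.57 and 1.68 CPM in HSS, 1.77, 1456 and 55.1 in Vortex and 12.4 to 14.2 in PSS. Its replicate 1 was barely above HSS, so its fitted difference of 8.44 ± 2.01 rests on replicates 2 and 3, and it was 4.31 without replicate 2. Cldn5, the main claudin of the blood-brain barrier, had 2 counts over the 3 HSS libraries and 7866 over the Vortex libraries, a scaled ratio of 3999 (exact 95% interval 1107 to 33024, counting error only). With replicates 1 and 3 alone it had 75 counts and a ratio of 60.3 (16.1 to 507). The angiopoietin receptor Tek was at 4.77 to 6.58 in HSS and 7.13, 169 and 36.5 in Vortex. The flow-responsive Nos3 was at 6.04, 7.62 and 5.16 in HSS and 24.2, 233 and 40.9 in Vortex, and Klf2 at 6.56 to 6.84 against 12.7, 125 and 17.4. Klf2 missed the threshold with all libraries (2.94 ± 0.78, adjusted p 0.054) and passed it without any 1 Vortex library, at 0.00374 to 0.0424, while its difference fell to 1.16 without replicate 2. The differences of Nos3 and Tek moved from 3.99 to 2.38 and from 3.58 to 1.89 without replicate 2. PSS levels were above all HSS libraries for each of the 8 genes. The 7 calls named here were lost in the 6-library fit (adjusted p 0.0607 to 0.139) and without any 1 HSS library (0.0786 to 0.187), Tek also without Vortex replicate 3 (0.0564), Tek, Pecam1 and Cldn5 without any 1 PSS library, and Cdh5 and Nos3 without PSS replicate 1.

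**Figure D4:**
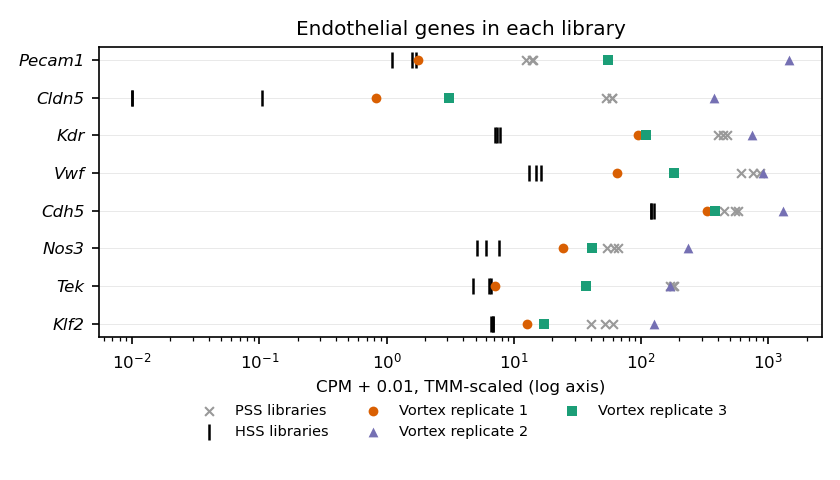
CPM plus 0.01 on a log axis for 8 endothelial genes, 1 mark per library. HSS bars are lowest for every gene, with Vortex replicate 1 near them for Pecam1 and Tek and Vortex replicate 2 at or above PSS for most.

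Mitotic genes were lower in Vortex. Of 30 tested, 14 were called lower and none higher (2.67% and 4.37% of all genes), 20 had all 3 Vortex libraries below HSS (16.9% of all genes), and the list's median log2 difference was -0.94 against 0.10 over all genes. Without replicate 2, 27 of the 30 were called lower, in a fit that called 10.3% of all genes lower. The capitals below mark TTTGAA, read on either strand, the core of the cell cycle homology region through which the DREAM complex is known to hold mitotic promoters silent. The windows, 100 bases each in gene orientation from RefSeq on GRCm38.p6 (the deposited table is on GRCm39), are of the called members with the motif whose p was smallest.
Mki67 (chr7:135716425-135716524, minus strand): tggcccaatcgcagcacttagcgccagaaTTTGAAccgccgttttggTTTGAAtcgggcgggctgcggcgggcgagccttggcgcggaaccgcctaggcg
Kif11 (chr19:37376282-37376381, plus strand): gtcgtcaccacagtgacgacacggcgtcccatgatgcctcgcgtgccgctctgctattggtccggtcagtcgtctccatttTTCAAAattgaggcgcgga
Prc1 (chr7:80294376-80294475, plus strand): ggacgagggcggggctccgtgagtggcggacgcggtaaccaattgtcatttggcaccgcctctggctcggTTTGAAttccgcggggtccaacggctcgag
In the 250 bases before the start, 9 of 25 matched mitotic genes held the motif (36.0%) and 13.2% of all 10947 matched tested genes did. A match is a description of the letters only.

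Mki67, the proliferation antigen, was at 590, 595 and 603 CPM in HSS, 163, 70.7 and 173 in Vortex and 477 to 506 in PSS, a fall of 2.13 ± 0.30 (adjusted p 0.01). The spindle motor Kif11 was at 237, 234 and 248 in HSS and 51.3, 55.0 and 106 in Vortex, and the midzone protein Prc1 at 135 to 146 against 62.6, 58.1 and 85.4. These 2 were chosen after their values were seen. The kinetochore gene Ndc80 and the checkpoint kinase Bub1 fell by 1.52 ± 0.22 and 1.55 ± 0.23. No Vortex library reached the HSS range for these 5 genes. Genes of DNA replication did not move alike: 1 of 32 was called lower, near the 2.67% of all genes. It was the polymerase subunit Pola1 (82.5 to 83.6 CPM in HSS, 27.1, 13.5 and 38.8 in Vortex). The list's medians were -1.26, 0.63 and -0.39 in the 3 Vortex libraries. Its overall median of -0.13 became 0.17 without replicate 1 and -0.72 without replicate 2, where 15 of the 32 were called lower (10.3% of all genes). The cell cycle inhibitor Cdkn1a was at 69.0 to 77.0 in HSS and 68.9, 116 and 70.0 in Vortex. It did not pass the test (0.24 ± 0.26, adjusted p 0.58), and its sign turned without replicate 2 (-0.05). The calls of Mki67, Ndc80, Bub1, Kif11, Prc1 and Pola1 were lost in the 6-library fit (0.0583 to 0.0884) and without any 1 HSS library (0.0758 to 0.133), Prc1 and Pola1 also without PSS replicate 1, and Prc1 with the GC trend removed (0.0544).

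Interferon response genes were lower in Vortex than in HSS, and lower in PSS as well. None of 40 was called higher and 8 were called lower (2.67% of all genes), 29 had all 3 Vortex libraries below HSS (16.9% of all genes) and none above, and the median was -1.33. Without replicate 2 the median was -0.88 with 24 calls lower, beside 10.3% of all genes. The list's median log2 differences from HSS were -0.94, -3.02 and -0.82 in Vortex replicates 1, 2 and 3. In PSS replicates 1, 2 and 3 they were -1.82, -1.83 and -1.36. The capitals mark GAAA, 2 bases of any kind and GAAA again on either strand, a form of the interferon-stimulated response element found before many genes of this response, with matches that overlap run together.
Irgm1 (chr11:48871421-48871520, minus strand): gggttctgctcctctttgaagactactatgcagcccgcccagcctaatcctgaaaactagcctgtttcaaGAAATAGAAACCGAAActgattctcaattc
Ifit3b (chr19:34607758-34607857, plus strand): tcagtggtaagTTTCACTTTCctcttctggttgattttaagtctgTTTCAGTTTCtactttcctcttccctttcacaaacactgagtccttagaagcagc
Igtp (chr11:58199456-58199555, plus strand): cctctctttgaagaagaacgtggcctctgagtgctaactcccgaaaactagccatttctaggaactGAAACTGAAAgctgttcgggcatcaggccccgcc
The motif was in 16 of 30 matched members (53.3%) and in 3.25% of all matched tested genes.

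The interferon-inducible GTPase Irgm1 was at 86.2, 93.7 and 95.0 CPM in HSS and 13.9, 26.9 and 45.0 in Vortex. Igtp, of the same GTPase family, was at 24.3 to 27.6 against 5.61, 5.10 and 13.9, and Ifit3b, which has close paralogs that can share its reads, at 28.4 to 30.0 against 3.85, 2.62 and 12.2. These 3 were chosen after their values were seen. The nucleotide kinase Cmpk2 and the ADP-ribosyltransferase Parp14 fell by 2.28 ± 0.31 and 2.09 ± 0.35. Vortex lay wholly below HSS for the 5 genes. Without replicate 3 the differences of Ifit3b and Igtp moved from -2.22 to -3.17 and from -1.67 to -2.27. Their calls were lost in the 6-library fit (0.0583 to 0.109) and without any 1 HSS library (0.0665 to 0.163), and those of Ifit3b and Igtp also without Vortex replicate 1 (0.0525 and 0.061) and without any 1 PSS library. Irgm1 was lost without PSS replicates 1 or 2.

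Cholesterol synthesis genes had medians above HSS in all 3 Vortex libraries, and higher ones in PSS. The list's median log2 differences from HSS were 0.59, 0.91 and 0.78 in Vortex replicates 1, 2 and 3. In PSS replicates 1, 2 and 3 they were 1.54, 1.44 and 1.33, so Vortex lay between HSS and PSS. Of 26 tested, 10 were called higher and none lower (4.37% and 2.67% of all genes). In 18 all Vortex libraries lay above HSS (19.5% of all genes), and the median was 0.74. Without replicate 2 the median was 0.76 with 17 called higher, beside 14.1% of all genes. Srebf2, the transcription factor SREBP2 that switches on sterol synthesis, was at 93.1, 92.1 and 98.2 CPM in HSS and 305, 448 and 311 in Vortex, a rise of 1.91 ± 0.22 (adjusted p 0.005). The squalene synthase Fdft1 was at 27.0 to 29.3 against 77.6, 96.1 and 72.5, and the lanosterol demethylase Cyp51 at 36.1 to 38.8 against 78.5, 140 and 125. The groups did not overlap for the 3 genes. PSS lay as high or higher for Fdft1 and Cyp51, at 104 to 149 and 210 to 249. The calls were lost without any 1 HSS library, at adjusted p 0.0559 to 0.0823, and that of Cyp51 in the 6-library fit (0.0593). The sterol regulatory element TCACNCCAC was in 1 of 18 matched members (5.56%) and in 1.24% of all matched tested genes.

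Ribosomal protein genes were higher by like amounts in the 3 Vortex libraries. Of 79 tested, 32 were called higher and none lower (4.37% and 2.67% of all genes), 76 had all 3 Vortex libraries above HSS (19.5%), and the median was 0.92. Scaling by library totals left 13 of the 79 called with a median of 0.79. Rpl28 was at 205, 212 and 206 CPM in HSS and 440, 433 and 459 in Vortex, a rise of 1.10 ± 0.21 (adjusted p 0.021). Rpl8 was at 604 to 652 against 1120, 1320 and 1003, and Rps15 at 324 to 348 against 659, 722 and 790. PSS spread widely, from 224 to 393 for Rpl28. The list's median log2 differences from HSS were 0.48, 0.23 and 1.14 in PSS replicates 1, 2 and 3. In Vortex replicates 1, 2 and 3 they were 0.96, 1.01 and 0.91, all below PSS replicate 3. Rps15 was at 835 CPM in PSS replicate 3, also above every Vortex library. Processed pseudogenes can share reads with these genes, which makes single values uncertain. Of 35 nuclear respiratory chain genes 2 were called higher, Cox5a and Ndufa6, near the 4.37% of all genes. In 27 of them all Vortex libraries lay above HSS (19.5% of all genes), and the median was 0.46. All 5 calls were lost without any 1 HSS library (0.114 to 0.198) and without PSS replicate 1 (0.0542 to 0.0952), and Rps15, Cox5a and Ndufa6 also without Vortex replicate 3 (0.0616 to 0.0926). Rpl8, Cox5a and Ndufa6 were lost in the 6-library fit (0.0594 to 0.0693), and Ndufa6 without Vortex replicate 1 or PSS replicate 2. With the GC trend removed Rpl8, Rps15 and Ndufa6 were lost (0.0611 to 0.113).

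Genes of the ATF4 and unfolded protein responses, which cells raise when amino acids run short or folding in the endoplasmic reticulum falters, were partly higher. Of 32 tested, 8 were called higher and none lower, beside 4.37% and 2.67% of all genes. In 16 all Vortex libraries lay above HSS and in 1 below, beside 19.5% and 16.9% of all genes. The median was 0.69. Capitals mark TGATGNAA on either strand, an amino acid response element bound by ATF4.
Asns (chr6:7693210-7693309, minus strand): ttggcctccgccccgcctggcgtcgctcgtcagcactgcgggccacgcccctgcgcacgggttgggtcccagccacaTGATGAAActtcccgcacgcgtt
Herpud1 (chr8:94386271-94386370, plus strand): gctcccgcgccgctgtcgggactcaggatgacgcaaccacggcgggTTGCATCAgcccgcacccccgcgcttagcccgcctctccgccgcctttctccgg
It was in 7 of 28 matched members (25.0%) and in 2.48% of all matched tested genes. Atf4 itself was at 231, 241 and 233 CPM in HSS, 493, 517 and 503 in Vortex and 269 to 292 in PSS, a rise of 1.10 ± 0.14 (adjusted p 0.0083). Asparagine synthetase, Asns, was at 186 to 189 against 871, 418 and 482, and Herpud1, of endoplasmic reticulum protein disposal, at 23 to 24.2 against 54.6, 45.6 and 42.0. The groups were separate for each.

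Of 29 lysosome and autophagy genes, 7 were called higher and 1 lower (4.37% and 2.67% of all genes), and the median was 0.54. The protease Ctsd was at 123 to 133 CPM in HSS and 271, 395 and 352 in Vortex, and the hexosaminidase chain Hexa at 191 to 194 against 361, 413 and 439. The autophagy gene Gabarapl1 was at 102 to 107 against 320, 149 and 244. The exception was the acid lipase Lipa, at 208 to 222 in HSS and 130, 110 and 154 in Vortex, a fall of 0.70 ± 0.17 (adjusted p 0.0423), named after its values were seen. The 7 calls named in these lists were lost without any 1 HSS library (0.0758 to 0.19), and 6 of them, all but Atf4, in the 6-library fit (0.0549 to 0.105). Gabarapl1 was also lost without Vortex replicate 3 (0.0572) and, with Lipa, without PSS replicates 1 or 2. Both were lost with the GC trend removed (0.0639 to 0.298), and Lipa with no filter on low counts (0.115).

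Leukocyte adhesion and chemokine genes were called higher more often than all genes, but most did not pass the test. Of 27 genes 5 were called higher and none lower (4.37% and 2.67% of all genes). All Vortex libraries lay above HSS in 7 and below in 4, near the 19.5% and 16.9% of all genes. The median of 0.39 became -0.07 without replicate 3 and 0.63 without replicate 2, where 13 were called higher and 1 lower (14.1% and 10.3% of all genes). P-selectin, Selp, was at 0.28, 0.39 and 0.26 CPM in HSS and 2.46, 2.53 and 3.41 in Vortex, a rise of 3.14 ± 0.38 (adjusted p 0.0073). E-selectin, Sele, was at 15.9 to 18.2 against 96.6, 134 and 477, and the addressin Madcam1 at 3.21 to 4.54 against 16.5, 8.48 and 32.6. All 3 are docking molecules for leukocytes, and their groups did not overlap. Without replicate 3 the log2 differences of Sele and Madcam1 moved from 3.80 to 2.78 and from 2.28 to 1.66. Other inflammatory genes split by library. Vcam1 was at 155 to 157 in HSS and 462, 75.6 and 410 in Vortex, and Il6 at 12.2 to 15.1 against 60.9, 5.15 and 33.5. Neither passed the test with all libraries (adjusted p 0.25 and 0.26), and both passed it without replicate 2. Icam1 was at 42.3 to 48.3 against 56.0, 157 and 84.5 (adjusted p 0.091), the chemokine Ccl2 at 456 to 497 against 401, 96.7 and 207 (0.17), and the inducible nitric oxide synthase Nos2 at 236 to 254 against 154, 1.38 and 183 (0.55). Icam1 and Ccl2 passed without replicate 1. The 3 calls were lost without any 1 HSS library (0.0608 to 0.13), those of Sele and Madcam1 in the 6-library fit (0.0594 and 0.0828), and that of Madcam1 without PSS replicate 1 (0.0565).

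Of 19 acute phase and innate defence genes 0 were called by edgeR, beside 7.04% of all genes, and 0 had an unadjusted p under 0.05. DESeq2, limma-voom and limma on log2(FPKM + 1) called 0, and limma-voom with sample quality weights called 7. The list's median of -0.43 became 0.15 without replicate 2. The 5 genes with replicate 2 lowest below both others are secreted proteins. The siderophore binder Lcn2 was at 1573 to 1670 CPM in HSS and 2799, 13.5 and 2124 in Vortex, and the serum amyloid Saa3, which has close paralogs, at 1366 to 1465 against 2120, 2.76 and 1063. Osteopontin, Spp1, was at 1125 to 1178 against 3180, 11.2 and 2357, the complement inhibitor Serping1 at 162 to 173 against 293, 1.29 and 195, and Fgf23 at 3.54 to 4.31 against 56.1, 0.29 and 103. In PSS, Lcn2 was at 18.6 to 24.7, Saa3 at 3.84 to 4.64 and Fgf23 at 0.101 to 0.195, near replicate 2 or below it. Spp1 at 432 to 660 and Serping1 at 21.2 to 29.3 in PSS lay well above replicate 2. The genes with replicate 2 highest above the others were Cldn5, Fam43a, Arhgap9, Olfml2a and Was. Fam43a was at 0.68 to 1.29 in HSS and 0.57, 86.5 and 1.18 in Vortex. These are descriptions with no test.

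**Figure D5:**
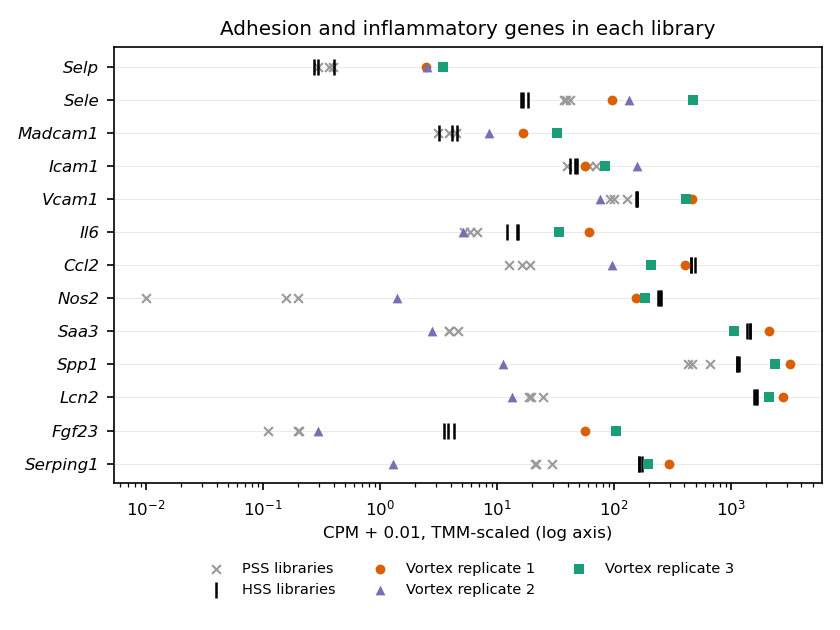
CPM plus 0.01 on a log axis for 13 adhesion and inflammatory genes, 1 mark per library. Selp, Sele and Madcam1 have all Vortex marks above HSS, while Vortex replicate 2 lies far to the left of the others for Nos2, Saa3, Spp1, Lcn2, Fgf23 and Serping1.

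Among growth factors and their receptors, 9 of 27 were called higher and 2 lower (4.37% and 2.67% of all genes), with a median of 0.79. Angiopoietin 1, the Tek ligand Angpt1, was at 81.7, 82.4 and 83.7 CPM in HSS and 16.1, 3.14 and 14.5 in Vortex, a fall of 2.88 ± 0.51 (adjusted p 0.017). Platelet-derived growth factor B, Pdgfb, was at 9.52 to 10.5 against 41.3, 205 and 51.7, and Ramp3, a subunit of adrenomedullin receptors, at 1.16 to 1.74 against 46.5, 14.8 and 11.2. The Notch ligand Dll1 was at 2.22 to 2.86 against 37.9, 86.7 and 18.5, a rise of 4.27 ± 0.54. The bone morphogenetic proteins Bmp6 and Bmp4 went opposite ways. Bmp6 was at 5.89 to 6.93 in HSS and 20.1, 151 and 27.4 in Vortex, and Bmp4 at 38.6 to 39.7 against 16.1, 6.57 and 17.6. No Vortex library overlapped HSS for these 6 genes. Without replicate 2 the differences of Dll1, Pdgfb and Bmp6 moved from 4.27 to 3.51, from 3.32 to 2.22 and from 3.35 to 1.87, and without replicate 1 that of Ramp3 from 4.13 to 3.22. The calls were lost in the 6-library fit (0.0583 to 0.0998) and without any 1 HSS library (0.0665 to 0.143), and those of Bmp6 and Bmp4 also without PSS replicates 1 or 2.

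Matrix and adhesion genes changed in both directions. Of 25 integrins and laminins 4 were called higher and none lower (4.37% and 2.67% of all genes). Their median of 0.14 was -0.02 on log2(FPKM + 1). The laminin-binding Itgb4 was at 14.7 to 18.1 CPM in HSS and 32.4, 113 and 52.7 in Vortex, and the fibronectin receptor chain Itga5 at 274 to 298 against 531, 881 and 491. The protease Adamts4 was at 94.5 to 95.0 against 264, 132 and 401, and Adamts5 at 20.7 to 22.5 against 10.2, 5.24 and 7.80. The basement membrane collagen Col18a1 was at 256 to 278 against 547, 820 and 522, and the fibril-associated Col12a1 at 47.8 to 51.8 against 18.4, 8.72 and 25.1. The groups did not overlap for these genes. The tight junction gene Ocln was at 6.88 to 9.59 against 19.9, 24.2 and 27.2.

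Of 24 mesenchymal transition genes 3 were called higher and none lower (4.37% and 2.67% of all genes). The list's median of 0.17 turned to -0.25 without replicate 1 and -0.04 without replicate 3. The called members were Itga5, Tnc and Tgfb1. Tenascin C, Tnc, was at 1.23 to 1.68 CPM in HSS and 4.35, 24.3 and 9.58 in Vortex, and Tgfb1 at 46.3 to 49.0 against 77.3, 315 and 112. Fibronectin, Fn1, was at 1520 to 1589 against 913, 915 and 1623 (adjusted p 0.31). The transcription factor Snai1 was at 12.0 to 12.3 against 12.2, 24.3 and 15.1 (0.26), and Snai2 at 0.66 to 1.35 against 1.77, 6.72 and 2.62 (0.074). Of 11 smooth muscle contractile genes 2 were called lower (2.67% of all genes). The actin-binding Synpo2 was at 6.98 to 8.02 against 0.57, 0.81 and 2.07. Among YAP and TAZ targets 2 of 19 were called higher and 2 lower (4.37% and 2.67% of all genes). Tead4, a DNA-binding partner of YAP, was at 17.4 to 17.6 against 77.3, 113 and 43.1, the kinase Nuak2 at 15.8 to 16.2 against 4.16, 4.43 and 7.06, and the matrix protein Ccn1 at 661 to 691 against 338, 298 and 471. The 13 calls named in these lists beside Itga2 and Adamts9 were lost in the 6-library fit (0.0583 to 0.132) and without any 1 HSS library (0.0758 to 0.186). Adamts4 and Tgfb1 were lost without Vortex replicate 3 as well (0.0526 to 0.0632), 8 of the 13 without PSS replicate 1, 5 without PSS replicate 2 and 2 without PSS replicate 3. Adamts4 was also lost with the GC trend removed (0.0668). Without replicate 2 the differences of Itgb4, Tnc and Tgfb1 moved from 2.01 to 1.38, from 3.09 to 2.22 and from 1.81 to 0.98, and without replicate 3 that of Synpo2 from -2.72 to -3.44. Snai2 passed without Vortex replicate 1 (0.023).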

How the data were processed

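Polyadenylated RNA of 9 bEnd.3 libraries was sequenced, and per the labels' protocols 1.5 µg of RNA per sample entered a NEBNext Ultra library. Reads were processed with HISAT2 and HTSeq 0.13.5 on build GRCm39, per the submitters' processing notes. Whether counting used strand is not given in the sources used, so antisense and overlapping genes cannot be told apart. The authors deposited whole-number counts for 31232 genes and, in the same deposited table, FPKM values. In 100% of genes with values, the counts and FPKM gave 1 gene length within a relative tolerance of 1e-06.

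Genes were kept by filterByExpr (15774) and scaled by TMM, and edgeR 4.0.16 in R 4.3.3 fitted a robust quasi-likelihood model to all 9 libraries, with Vortex tested against HSS. CPM values use TMM-scaled totals, and log CPM adds a prior count of 2. Calls are genes whose adjusted p (Benjamini-Hochberg, all tested genes) is under 0.05. The common biological coefficient of variation was 0.350. A standard error is the log2 difference divided by the root of its F statistic. For 1 gene, the smallest p of an exact permutation of 3 against 3 libraries is 0.1. Members and lists were chosen with earlier results of these data known.

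Genes were named by rule: up to 10 rises and 10 falls by size among calls with at least 5 CPM in the higher group. Every Vortex library had to lie beyond the HSS range on 1 side and at least 1 log2 unit from the HSS mean. Calls kept when any 1 compared library was left out were preferred. Added to these were up to 3 members of each described list by p, among those with all 3 Vortex libraries on 1 side of the HSS mean. Further additions were 25 genes of flow biology and 5 genes at each end for replicate 2. The text gives part of the genes so named. Promoters are from RefSeq on GRCm38.p6, with motifs searched in 250 bases before the start. GC content came from GENCODE M21 transcripts for 98.5% of tested genes, and its trend was removed by lowess with span 0.3. Alternatives used other scaling, filters, limma 3.58.1 and DESeq2 1.42.0, a replicate block, and left-out libraries. The procedure was tested on simulated data.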

Additional observations from a re-analysis of the deposited data

How the results depend on the processing

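Against 1111 genes called, no filter beyond 1 count gave 713, the DESeq2 Wald test 2700, limma-voom with sample quality weights 6434, the 6 compared libraries alone 66, and the HSS libraries summed to 1 gave 0 (edgeR, 982 at an unadjusted p under 0.05). Leaving out 1 library gave 25 to 3887: 25 or 26 without an HSS library, 2440, 3887 and 956 without Vortex replicates 1, 2 and 3, and 331, 587 and 1068 without PSS replicates 1, 2 and 3. Chosen after seeing the data, fits without Vortex replicate 2 gave 4201 from 5 compared libraries and 4250 with the GC trend removed, and removing the trend alone gave 1419. The replicate block gave 357 calls, 197 higher and 160 lower. The settings not named here stayed within 1.5 times. The cause of these differences was not tested. Same-numbered HSS and Vortex libraries deviated together with correlations of 0.0356, 0.0071 and 0.041, and Vortex replicate 2 correlated best with HSS replicate 3 (0.0094). These values cannot decide whether same-numbered libraries were paired, since the HSS libraries differed by little more than sampling noise. The sign of Cdkn1a, not called at 0.24, turned to -0.020 with quality weights, -0.046 from 5 libraries and -0.077 with the GC trend removed and Vortex replicate 2 left out. Leaving out 1 library gave it -0.047 (Vortex replicate 2) to 0.38 (Vortex replicate 3). No other gene given with a test changed sign under any alternative run. Of 81 named calls, 63 were lost without any 1 HSS library and 28 with the block, and 55 of the 79 tested with 6 libraries. Depth limits genes near the floor, such as Cldn5 in HSS.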
